A study of Mus musculus with 2 samples.

Results

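Genes that make or use glutathione, remove peroxides and superoxide, oxidise aldehydes or bind metal ions were compared between control and Ccdc25-knockdown brain neural stem cells of the mouse. They were taken by symbol from the protein-coding rows of the deposited count table: the glutathione S-transferases, glutathione peroxidases, peroxiredoxins and aldehyde dehydrogenases, a set of single antioxidant genes, and the metallothioneins. The table holds 59 such genes of 19595 in all and of 15095 that are protein-coding. Mt2 is not analysed here. The cells came from ICR mice at embryonic day 13, and total RNA was used for the libraries. The control library is labelled psicor (genotype WT) and the other sh1 (genotype KO). The series' design calls the second group a knockdown and speaks of triplicates, while the table gives 1 library per group. The labels do not say how the cells were cultured, how the knockdown was delivered, or whether a library stands for 1 culture, a pool or a sum. With no replicates, no difference could be tested.

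Glutathione is a small thiol peptide whose synthesis begins with glutamate-cysteine ligase. Glutathione peroxidases spend it on peroxides, and glutathione S-transferases attach it to reactive compounds. Peroxiredoxins remove peroxides, most of them with electrons from thioredoxin, superoxide dismutases turn superoxide into hydrogen peroxide, and catalase breaks that peroxide down. Aldehyde dehydrogenases oxidise aldehydes that arise from lipids, amino acids, folate and retinol, and metallothioneins bind zinc and copper through their cysteines. The transcription factor NRF2, encoded by Nfe2l2, drives many of the inducible genes among them, and MTF1 drives the metallothioneins. In the brain, astrocytes are known for high levels of several of these genes, including the metallothioneins, Prdx6, Gstm1 and Aldh1l1.

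Levels are given as CPM, counts scaled by library size with edgeR's TMM factors, with the control first and the knockdown second. A ratio is knockdown over control, followed by its 95% interval (exact conditional binomial), which covers counting error only. The libraries held 16549682 and 16058407 counts, and a floor of 3 counts is 0.178 and 0.19 CPM. Ccdc25, the targeted gene, stood at 32.8 against 26.1 CPM (ratio 0.794, 0.697 to 0.904). Its log2 fold of -0.33 was smaller in size than the median absolute log2 fold over all genes, 0.359, so the library is called knockdown from its label more than from this gene's level. All 12 markers of the labelled cell type had a mean of at least 1 CPM, summing to 6809 and 8938 CPM. These sums consist largely of Vim and Fabp7, whose ratios were 1.21 and 1.26. Id4, Hes5 and Msi1 stood at least 2-fold higher, and Hes1 lay lower at a ratio of 0.601. The 11 astrocyte markers measured, Gfap and Apoe among them, all stood higher in the knockdown library, 9 of them at least 2-fold, and summed to 754 and 6340 CPM. Apoe, at 151 and 3484 CPM, made up the largest part of the knockdown sum, and Gja1 and Slc1a2 lay within 2-fold. Of 12 oligodendrocyte lineage markers, 9 stood at least 2-fold higher, with a median log2 fold of 3.32. Their sum, 3013 and 5333 CPM, consists largely of Olig1 and Olig2, whose ratios were 1.39 and 1.29. Neuronal markers, 10 of 12 at least 2-fold lower, summed to 2868 and 1211 CPM. Markers of mesenchyme summed to 460 and 89.1 CPM, largely Acta2 and Fn1. Of 9 such markers with a mean of at least 1 CPM, 7 stood at least 2-fold lower. Foxc1 lay within 2-fold, and Pdgfrb stood at least 2-fold higher at 19 and 81 counts. Markers of microglia summed to 39.6 and 12.1 CPM. Csf1r, Cx3cr1, Ptprc, C1qb and C1qc, at 0 in the knockdown library, had 21, 8, 11, 14 and 14 control counts. Their means lay below 1 CPM. Past that level were 3 microglial markers, with Lyz2 at least 2-fold lower at 309 and 16 counts. Aif1, at 34 and 17 counts, and Cd68, at 215 and 151 counts, lay lower within 2-fold. The part of these markers in the results below was not tested. In RNA from many cells, fewer cells of a type and less RNA per cell cannot be told apart.

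Of the 59 genes, 49 reached a mean of 1 CPM over both libraries. Of these, 11 stood at least 2-fold above the control, beside 7.64% of the 14158 genes past the same minimum and 6.97% of the 12721 protein-coding ones. None stood at least 2-fold below, beside 7.76% of all genes and 7.77% of protein-coding ones. A 2-fold difference either way was thus found for 11 of 49, beside 15.4% and 14.7%. In all, 32 of the 49 stood above their control level, beside 49.7% and 48.9%. The counting interval lay above a ratio of 1 for 30 of them, beside 33.2% and 33.7%, and below it for 10, beside 33.6% and 35.2%. The median log2 fold of the 49 was 0.43, and that of all genes -0.0042.

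The 11 genes were Aldh6a1, Gsto2, Gstk1, Mt1, Aldh2, Mt3, Gstm1, Gstm4, Aldh3b1, Aldh7a1 and Prdx6. Aldh7a1 and Prdx6 lay at the threshold and dropped below it when libraries were scaled by DESeq2 size factors, by total counts or as the authors did. The others stayed above it under these scalings. With no minimum, Gstm6, Gstt2 and Gstt3 also passed 2-fold upward and Aldh1a2 downward, all on low counts.

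**Figure D1:**
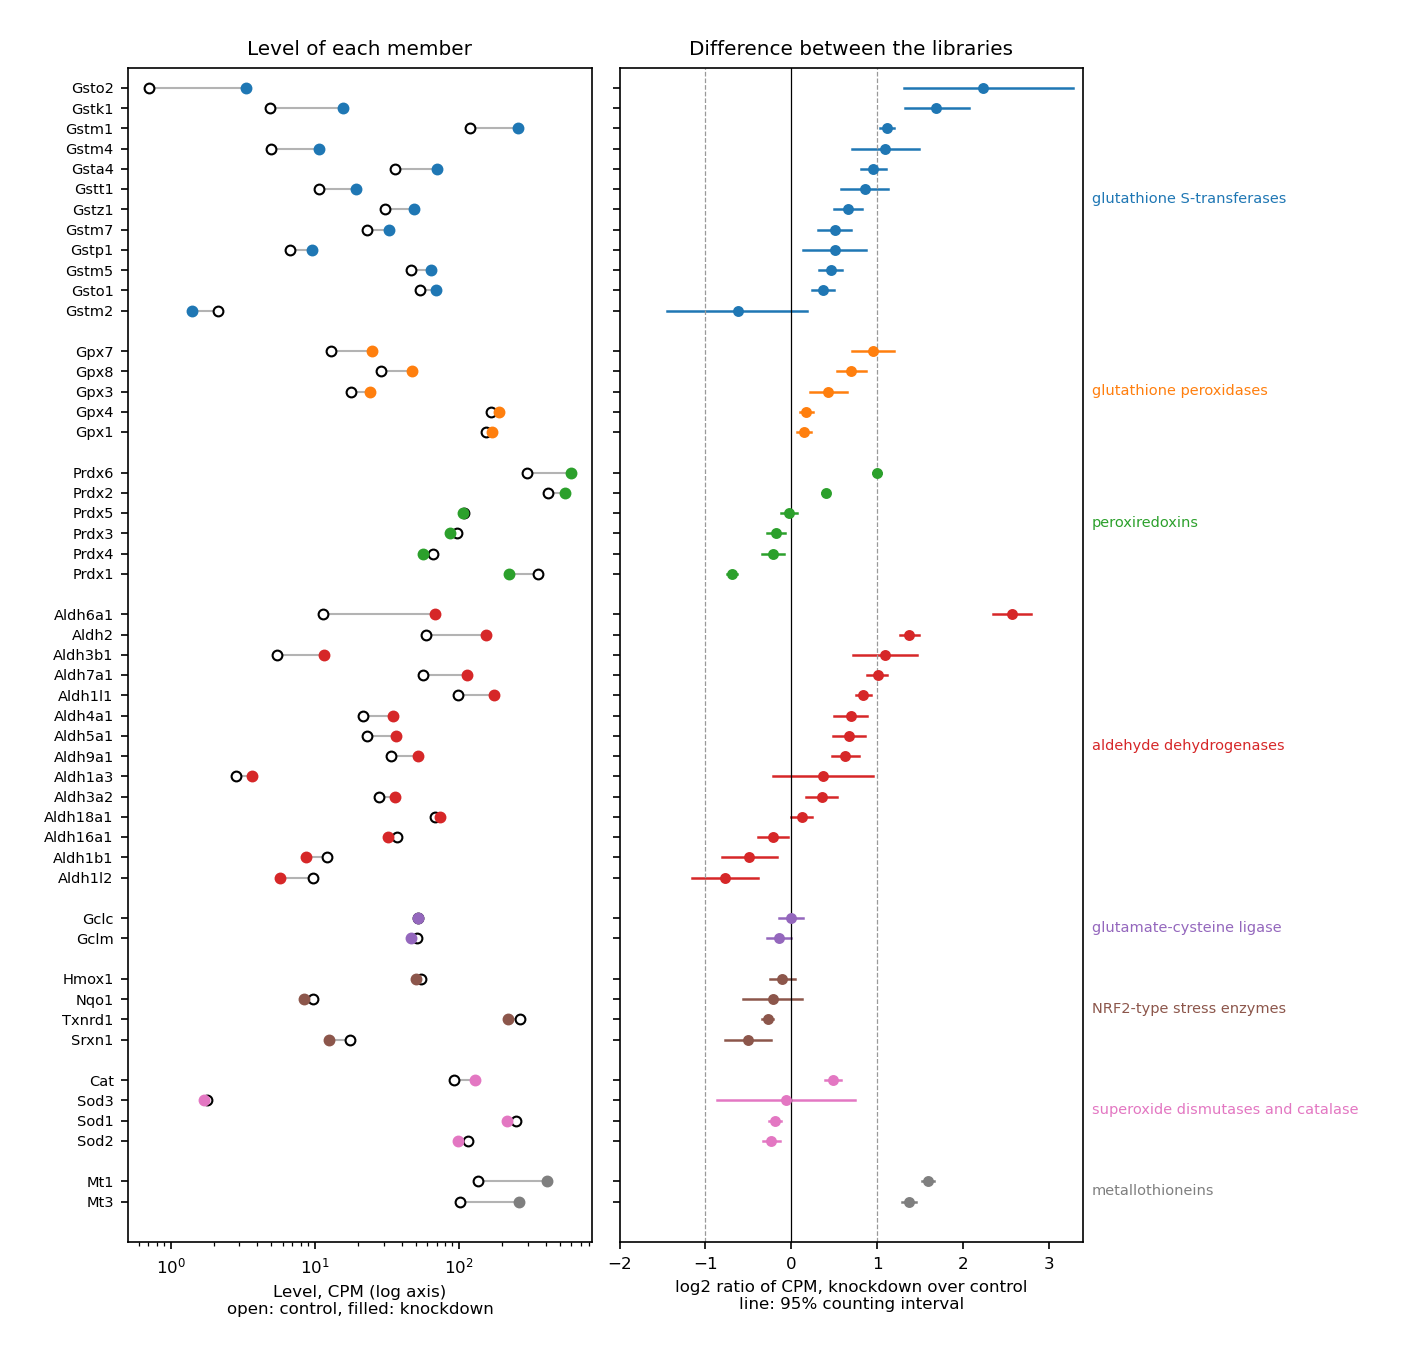
Level of the 49 genes in the control (open circles) and knockdown library (filled circles), in CPM on a log axis, and at the right the log2 ratio with its 95% counting interval, grouped by family, with dashed lines at 2-fold. Metallothioneins and all but 1 of the transferases lie right of 0, and the ligase and NRF2-type genes lie at or left of it.

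The families differed in direction. Metallothioneins summed to 236 against 671 CPM (ratio 2.84, 2.74 to 2.95). Glutathione S-transferases summed to 340 against 606 CPM (ratio 1.78, 1.72 to 1.84), and aldehyde dehydrogenases to 471 against 809 CPM (ratio 1.72, 1.67 to 1.77). These are the families with the ratios furthest from 1, while by the difference in summed CPM the peroxiredoxins lay above the transferases. Glutathione peroxidases summed to 382 against 457 CPM (ratio 1.2, 1.16 to 1.24) and peroxiredoxins to 1339 against 1613 CPM (ratio 1.2, 1.18 to 1.23). Superoxide dismutases with catalase gave 457 against 446 CPM (ratio 0.976, 0.945 to 1.01). Below the control lay the NRF2-type stress enzymes Nqo1, Hmox1, Srxn1 and Txnrd1, at 348 against 292 CPM (ratio 0.839, 0.807 to 0.872). Of these counts Txnrd1 made up 76.5% in control and 75.5% in knockdown cells. Both subunits of glutamate-cysteine ligase together gave 103 against 97.9 CPM (ratio 0.952, 0.888 to 1.02), with an interval that held 1. No family's ratio crossed 1 under the other scalings tried. By median log2 fold the families ran from 1.49 for metallothioneins, 0.76 for transferases and 0.66 for aldehyde dehydrogenases to -0.24 for the NRF2-type enzymes. The peroxiredoxins' sum and median lay on opposite sides of the control, the median being -0.099.

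**Figure D2:**
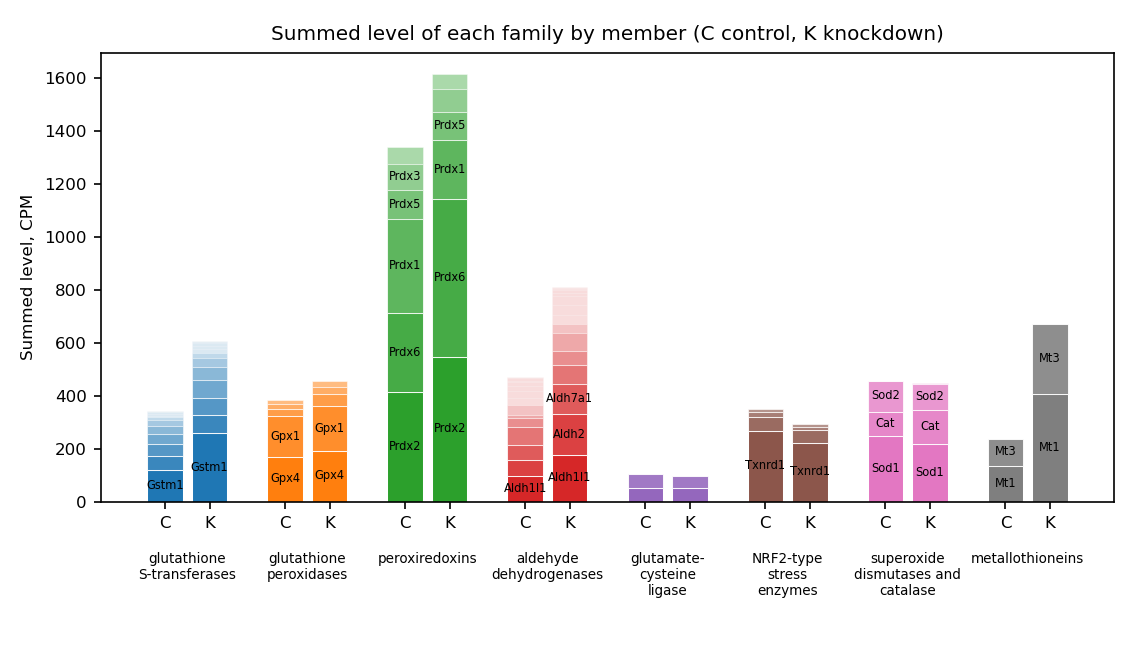
Summed level of each family in CPM, with 1 bar for the control (C) and 1 for the knockdown library (K), split by gene. Peroxiredoxins form the tallest bars at 1339 and 1613 CPM, and within them the segment of Prdx6 is larger and that of Prdx1 smaller in the knockdown library.

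Both metallothioneins stood higher in the knockdown library. Mt1 (ENSMUSG00000031765, chr8:94179082-94180327, plus strand, GRCm38), the broadly expressed and metal-induced form, had 2269 and 6423 counts, which is 135 against 407 CPM (ratio 3.02, 2.88 to 3.17). Mt3 (ENSMUSG00000031760, chr8:94152607-94154146, plus strand), the form known from the brain, had 1711 and 4152 counts, which is 102 against 263 CPM (ratio 2.59, 2.45 to 2.74). No stretch of 50 bases in their transcripts occurs in a transcript of another gene. Per length of exon, Mt1 had 108 and 327 CPM per kilobase and Mt3 95.2 and 247 CPM per kilobase. In the knockdown library these were the 2 highest levels per kilobase among the 59 genes. In the control, Prdx2 at 136 and Prdx1 at 117 CPM per kilobase stood above both. The lengths join all annotated exons of a gene and can exceed that of a single transcript. For Mt1 they cover the whole span of the gene. Orders between genes per kilobase, here and below, depend on this.

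Their start regions are shown because Mt1 and Mt3 both stood higher while their windows differ in the letters that MTF1 is known to bind. Printed are 250 bases before and 30 bases from an annotated start, from RefSeq on GRCm38.p6, plus strand, at chr8:94178839-94179118 and chr8:94152357-94152636. Where a gene had several annotated starts, the window with the most matches was printed. Capitals mark matches on either strand to the core of the metal response element, searched as TGCACNC and TGCGCNC.
Mt1: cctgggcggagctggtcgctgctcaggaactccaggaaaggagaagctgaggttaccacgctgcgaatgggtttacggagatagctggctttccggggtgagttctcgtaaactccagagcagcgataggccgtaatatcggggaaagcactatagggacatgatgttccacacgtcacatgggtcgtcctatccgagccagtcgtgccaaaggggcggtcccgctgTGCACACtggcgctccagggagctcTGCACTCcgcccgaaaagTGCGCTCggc
Mt3: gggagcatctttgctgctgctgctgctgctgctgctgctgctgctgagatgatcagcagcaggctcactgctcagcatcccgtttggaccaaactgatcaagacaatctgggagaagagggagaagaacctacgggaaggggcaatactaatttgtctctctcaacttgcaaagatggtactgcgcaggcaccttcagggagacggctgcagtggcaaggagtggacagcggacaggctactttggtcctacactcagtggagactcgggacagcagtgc
The Mt1 window held 3 matches and the Mt3 window 0. Those of Mt1 begin at base -23 before the annotated start and at bases 3 and 21 from it. Whether transcription begins at that start in these cells was not tested. Of 32851 such windows, 24.1% held at least 1 match to either form. At least 1 was found in 13 of the 47 member genes with a window (27.7%), beside 26.6% of 27025 genes. A match describes letters and is not a bound site, and no match says only that these letters are not in this window.

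Other genes of metal handling were mixed: 14 of 18 listed genes reached 1 CPM, 2 of them at least 2-fold up and 0 down (median log2 fold 0.33). Slc30a10, a manganese exporter, stood at 4.57 against 41.9 CPM (ratio 9.16, 7.22 to 11.8). It shares 533 exonic bases with Gm2061, a noncoding gene on the opposite strand that had 6 and 64 counts beside 77 and 660 counts for Slc30a10. Slc31a2, a copper transporter, had a log2 fold of 1.07, and the zinc importers Slc39a10 and Slc39a1 had -0.68 and 0.66. Mtf1 itself, named after its value was seen, stood at 28.2 against 27.3 CPM (ratio 0.97, 0.849 to 1.11).

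Of 12 glutathione S-transferases past the minimum, 4 stood at least 2-fold above the control, 0 below, and 11 above their control level at all. Gstm1 (ENSMUSG00000058135, chr3:108012255-108017973, minus strand), the one with the highest level per kilobase, had 2002 and 4058 counts, which is 119 against 257 CPM (ratio 2.17, 2.05 to 2.29). Of its 50-base stretches 18.9% also occur in other genes, chiefly the pseudogene Gstm2-ps1, so its count depends in part on how shared reads were treated. Gstk1, the kappa-class enzyme of mitochondria and peroxisomes, stood at 4.87 against 15.7 CPM (ratio 3.23, 2.51 to 4.2). Gsto2, an omega-class enzyme active on dehydroascorbate, had 12 and 53 counts, which is 0.712 against 3.36 CPM (ratio 4.72, 2.49 to 9.7), a wide interval. Its neighbour on chromosome 19, Gsto1, had a higher level per length, 26.4 and 34.1 CPM per kilobase beside 0.303 and 1.43 CPM per kilobase, and stood at 53.4 against 69 CPM (ratio 1.29, 1.18 to 1.41).

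The mu-class genes lie in a cluster on chromosome 3, from Gstm5 at 107895821 to Gstm4 at 108044894. Gstm1 and Gstm4, the last 2 genes at the Gstm4 end, both passed 2-fold, Gstm4 at 4.98 against 10.7 CPM (ratio 2.14, 1.64 to 2.81). At the other end, Gstm5 stood at 46.5 against 64 CPM (ratio 1.38, 1.25 to 1.51) and Gstm7 at 22.9 against 32.5 CPM (ratio 1.42, 1.24 to 1.62). Gstm2, between them, was the 1 transferase past the minimum that lay lower in the knockdown library. It had 36 and 22 counts and an interval of the ratio that held 1 (0.366 to 1.14). The remaining genes of the cluster were scarce, Gstm3 having 1 and 1 counts and Gstm6 5 and 11 counts. Of the mu-class counts, Gstm1 made up 60.7% (59% to 62.4%) in control and 70.2% (69% to 71.4%) in knockdown cells, with exact binomial intervals. Gstm5 made up 23.7% (22.3% to 25.2%) in control and 17.5% (16.5% to 18.5%) in knockdown cells. Gstm5 shares 178 exonic bases with the antisense gene 4933431E20Rik, which had 302 and 443 counts.

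Transferases of the alpha, theta, zeta and pi classes past the minimum stood higher within 2-fold. Gsta4, the alpha-class enzyme known for conjugating hydroxynonenal from oxidised lipid, stood at 36.3 against 70.6 CPM (ratio 1.94, 1.76 to 2.15). Gstt1, of the theta class, stood at 10.7 against 19.4 CPM (ratio 1.81, 1.5 to 2.18). Gstz1, which also acts in tyrosine breakdown, stood at 30.9 against 49 CPM (ratio 1.58, 1.41 to 1.77), and shares 465 exonic bases with Pomt2 on the opposite strand, which had 801 and 715 counts. Gstp1, of the pi class, stood at 6.71 against 9.51 CPM (ratio 1.42, 1.1 to 1.83), and 33.7% of its 50-base stretches also occur in Gstp2. Under the minimum lay Gsta3 with 9 and 12 counts, Gstt3 with 8 and 23 counts and Gstt2 with 0 and 7 counts. The counting interval of the ratio of Gstt2 began at 1.54.

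Of glutathione users and conjugate exporters outside these families, 16 of 21 listed genes reached 1 CPM, 1 of them at least 2-fold up and 1 down (median log2 fold -0.0038). Ptges, which makes prostaglandin E, had a log2 fold of 1.82, and Gdap1, a protein of mitochondria related to the transferases, -1.33. The membrane-bound transferases Mgst1 and Mgst3 lay on opposite sides of the control, at 0.74 and -0.86.

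All 5 glutathione peroxidases stood above their control level, and none passed 2-fold. Gpx1, the cytosolic selenoenzyme, stood at 154 against 170 CPM (ratio 1.11, 1.05 to 1.17). Gpx4, which reduces lipid peroxides in membranes and guards against ferroptosis, stood at 168 against 190 CPM (ratio 1.13, 1.07 to 1.19), and 34.7% of its 50-base stretches also occur in the pseudogene Gpx4-ps2. These had the highest levels per kilobase of the family and the ratios nearest to 1. The members of the endoplasmic reticulum lay further out, Gpx7 at 12.9 against 25 CPM (ratio 1.94, 1.64 to 2.29) and Gpx8 at 29 against 47 CPM (ratio 1.62, 1.45 to 1.83). Secreted Gpx3 stood at 17.9 against 24.1 CPM (ratio 1.35, 1.16 to 1.57).

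The peroxiredoxins split by gene. Prdx6 (ENSMUSG00000026701, chr1:161240112-161251219, minus strand), the single-cysteine form that also acts on phospholipids, had 5012 and 9393 counts, which is 297 against 596 CPM (ratio 2, 1.93 to 2.07). Prdx1 (ENSMUSG00000028691, chr4:116685544-116700822, plus strand), a cytosolic form that NRF2 induces, had 5984 and 3482 counts, which is 355 against 221 CPM (ratio 0.622, 0.596 to 0.648), the lowest ratio of the family. As a share of peroxiredoxin counts, Prdx6 made up 22.2% (21.7% to 22.8%) in control and 36.9% (36.3% to 37.5%) in knockdown cells. Prdx1 made up 26.5% (25.9% to 27.1%) in control and 13.7% (13.3% to 14.1%) in knockdown cells. Per length of exon the order of these genes was opposite in the libraries, with 117 and 72.6 CPM per kilobase for Prdx1 and 61.9 and 124 CPM per kilobase for Prdx6. Prdx2, the other cytosolic form, stood at 414 against 546 CPM (ratio 1.32, 1.28 to 1.36). It shares exonic bases on the opposite strand with Junb (173 bases, 1593 and 635 counts) and Rnaseh2a (177 bases, 994 and 799 counts). The remaining forms lay close to the control. Prdx3 of mitochondria stood at 97.4 against 86.2 CPM (ratio 0.885, 0.823 to 0.952), and Prdx4 of the secretory pathway at 65.8 against 56.7 CPM (ratio 0.861, 0.788 to 0.942). Prdx5, found in several compartments, stood at 109 against 107 CPM (ratio 0.985, 0.922 to 1.05), and shares 409 exonic bases with Trmt112, which had 673 and 830 counts.

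Of 14 aldehyde dehydrogenases past the minimum, 4 stood at least 2-fold above the control, 0 below, and 11 above their control level at all. Aldh6a1 (ENSMUSG00000021238, chr12:84430717-84451004, minus strand), the mitochondrial enzyme of valine and thymine breakdown, had 193 and 1073 counts, which is 11.5 against 68 CPM (ratio 5.94, 5.09 to 6.96), the highest ratio of the 49 genes. It shares 1078 exonic bases with Bbof1 on the opposite strand, which had 31 and 23 counts. Aldh2 (ENSMUSG00000029455), the mitochondrial enzyme that clears acetaldehyde, had 1001 and 2432 counts, which is 59.4 against 154 CPM (ratio 2.6, 2.41 to 2.8). Within the family's counts, Aldh6a1 made up 2.43% (2.1% to 2.8%) in control and 8.41% (7.93% to 8.9%) in knockdown cells, and Aldh2 12.6% (11.9% to 13.4%) in control and 19.1% (18.4% to 19.7%) in knockdown cells. Aldh7a1, which oxidises an aldehyde of lysine breakdown, stood at 56.2 against 113 CPM (ratio 2.01, 1.85 to 2.17), and shares 300 exonic bases with Phax, which had 953 and 1069 counts. Aldh3b1, which acts on lipid aldehydes, stood at 5.46 against 11.6 CPM (ratio 2.13, 1.65 to 2.76).

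A further group stood higher within 2-fold. Aldh4a1 of proline breakdown stood at 21.7 against 35.1 CPM (ratio 1.62, 1.41 to 1.85), but 30% of its 50-base stretches also occur in the overlapping gene Gm21969. Aldh5a1, which removes the semialdehyde made from GABA, stood at 23.1 against 36.9 CPM (ratio 1.6, 1.4 to 1.82). Aldh9a1, which acts in carnitine synthesis, stood at 33.7 against 52.3 CPM (ratio 1.55, 1.39 to 1.73), and the fatty aldehyde enzyme Aldh3a2 at 28.1 against 35.8 CPM (ratio 1.28, 1.13 to 1.45). Aldh18a1, which starts proline synthesis, stood near its control level at 68 against 73.8 CPM (ratio 1.09, 0.999 to 1.18). On the other side lay Aldh16a1 at 37.3 against 32.2 CPM (ratio 0.864, 0.767 to 0.973) and Aldh1b1, a mitochondrial relative of Aldh2, at 12.2 against 8.69 CPM (ratio 0.714, 0.571 to 0.891).

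Of the enzymes of proline, GABA, lysine and branched-chain amino acids around them, 12 of 13 listed genes reached 1 CPM, 2 of them at least 2-fold up and 2 down (median log2 fold 0.43). Abat, which makes the semialdehyde that Aldh5a1 removes, stood at 45.2 against 235 CPM (ratio 5.21, 4.81 to 5.63). The GABA-making enzymes of neurons lay opposite, Gad1 at 62.5 against 10.7 CPM (ratio 0.17, 0.144 to 0.201) and Gad2 at 18.2 against 2.22 CPM (ratio 0.122, 0.0833 to 0.173), and both are also among the neuronal markers above. Bckdha, a subunit of the branched-chain keto acid dehydrogenase, stood at 9.67 against 41.9 CPM (ratio 4.33, 3.65 to 5.18). It shares 1171 of its 1899 exonic bases with B3gnt8 on the opposite strand, which had 3 and 25 counts. Bckdhb, another subunit of that dehydrogenase, named after its value was seen, stood at 43 against 53.5 CPM (ratio 1.25, 1.13 to 1.38). Hibch and Hibadh, which act in valine breakdown with Aldh6a1, stood at 18.9 against 34.1 CPM (ratio 1.81, 1.57 to 2.08) and 38.2 against 60.1 CPM (ratio 1.58, 1.42 to 1.74), and were chosen after their values were seen.

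The folate-dependent pair lay on opposite sides. Aldh1l1 (ENSMUSG00000030088), the cytosolic formyltetrahydrofolate dehydrogenase and an astrocyte marker, had 1657 and 2783 counts, which is 98.3 against 176 CPM (ratio 1.79, 1.69 to 1.91). It shares 499 exonic bases with the antisense gene Gm15756. Its mitochondrial counterpart Aldh1l2 (ENSMUSG00000020256) had 164 and 90 counts, which is 9.73 against 5.71 CPM (ratio 0.586, 0.448 to 0.763), the lowest ratio of the 49 genes. Aldh1l2 shares 1056 exonic bases with D10Wsu102e on the opposite strand, which had 1431 and 1065 counts, so counting without strand would make its value uncertain. Of other folate enzymes, 14 of 16 listed genes reached 1 CPM, 0 of them at least 2-fold up and 1 down (median log2 fold -0.10). Mthfd2, of the mitochondrial branch, stood at 55.2 against 26.3 CPM (ratio 0.475, 0.422 to 0.534). Next came Amt of glycine cleavage at a log2 fold of 0.62, cytosolic Shmt1 at -0.59 and mitochondrial Mthfd1l at -0.33.

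The retinaldehyde dehydrogenases were scarce in both libraries. Of 4 Aldh1a genes, 1 reached the minimum, Aldh1a3 at 2.85 against 3.68 CPM (ratio 1.29, 0.866 to 1.93). Aldh1a2, which makes retinoic acid in embryonic mesoderm and meninges, had 20 and 2 counts, which is 1.19 against 0.127 CPM (ratio 0.107, 0.0121 to 0.44), beside the lower sum of the mesenchymal markers. Aldh1a1 had 11 and 7 counts and Aldh1a7 8 and 5 counts. The other aldehyde dehydrogenases under the minimum were Aldh3a1 with 10 and 7 counts and Aldh3b2 with 9 and 11 counts. Of genes of retinoic acid synthesis, breakdown and response, 16 of 22 listed genes reached 1 CPM, 2 of them at least 2-fold up and 2 down (median log2 fold 0.35). Dhrs3, which reduces retinaldehyde, stood at 2.08 against 6.91 CPM (ratio 3.33, 2.26 to 5.02). Cyp26b1, which breaks retinoic acid down, stood at 14.9 against 1.65 CPM (ratio 0.111, 0.0709 to 0.166), and Crabp1, which binds it, at 2.91 against 0.888 CPM (ratio 0.305, 0.156 to 0.562).

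The ligase genes and the NRF2-type stress enzymes, 6 of the known NRF2 targets, lay at or below their control level. They do not stand for every member that NRF2 may drive, and were grouped with earlier results of these data known. Of the 12 transferases past the minimum, which are outside this group, 11 stood above their control level, Gstm1 at a ratio of 2.17 and Gsta4 at 1.94. Gclc, the catalytic subunit of glutamate-cysteine ligase, stood at 51.9 against 51.7 CPM (ratio 0.996, 0.905 to 1.1). Gclm, its modifier, had 859 and 729 counts, which is 51 against 46.2 CPM (ratio 0.907, 0.82 to 1). Hmox1, the inducible heme oxygenase, stood at 54.5 against 50.8 CPM (ratio 0.931, 0.846 to 1.03), and Nqo1, the quinone reductase, at 9.73 against 8.37 CPM (ratio 0.86, 0.679 to 1.09). The intervals of these 4 genes held 1. Txnrd1, the cytosolic thioredoxin reductase, had 4486 and 3474 counts, which is 266 against 220 CPM (ratio 0.828, 0.791 to 0.865). Srxn1, which repairs overoxidised peroxiredoxins, had 298 and 197 counts, which is 17.7 against 12.5 CPM (ratio 0.706, 0.587 to 0.849). All 6 genes stood below their control level, Gclc barely so and none by 2-fold, while 49.7% of all genes stood above theirs. Together they gave 451 against 390 CPM (ratio 0.864, 0.836 to 0.894), sums that consist largely of Txnrd1.

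The start regions of Gclm, Prdx1, Txnrd1 and Gstm5 are shown because each holds TGACNNNGC, the core of the antioxidant response element through which NRF2 acts, while the genes lie on both sides of their control level. Windows are as for Mt1, at chr3:122245307-122245586, chr4:116685349-116685628, chr10:82858956-82859235 and chr3:107895604-107895883, all on the plus strand. Being picked for their matches, they need not lie at the outermost start of the gene. That of Txnrd1 lies inside the gene, which begins at 82833951. Capitals mark matches to TGACNNNGC, TGCACNC or TGCGCNC on either strand.
Gclm: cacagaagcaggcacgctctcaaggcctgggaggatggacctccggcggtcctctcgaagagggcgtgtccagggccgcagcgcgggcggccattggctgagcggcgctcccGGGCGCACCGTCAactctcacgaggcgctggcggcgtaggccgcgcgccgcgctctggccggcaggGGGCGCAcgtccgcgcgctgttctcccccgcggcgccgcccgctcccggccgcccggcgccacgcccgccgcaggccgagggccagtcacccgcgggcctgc
Prdx1: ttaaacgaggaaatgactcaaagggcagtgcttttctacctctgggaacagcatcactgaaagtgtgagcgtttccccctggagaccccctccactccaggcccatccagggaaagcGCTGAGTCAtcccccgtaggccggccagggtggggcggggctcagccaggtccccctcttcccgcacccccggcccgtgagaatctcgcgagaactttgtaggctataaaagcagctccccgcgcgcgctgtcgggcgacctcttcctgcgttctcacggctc
Txnrd1: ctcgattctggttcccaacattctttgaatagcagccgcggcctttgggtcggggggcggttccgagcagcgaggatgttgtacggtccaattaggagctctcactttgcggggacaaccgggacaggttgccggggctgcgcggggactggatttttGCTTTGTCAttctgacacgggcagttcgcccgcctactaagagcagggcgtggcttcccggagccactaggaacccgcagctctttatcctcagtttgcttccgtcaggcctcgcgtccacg
Gstm5: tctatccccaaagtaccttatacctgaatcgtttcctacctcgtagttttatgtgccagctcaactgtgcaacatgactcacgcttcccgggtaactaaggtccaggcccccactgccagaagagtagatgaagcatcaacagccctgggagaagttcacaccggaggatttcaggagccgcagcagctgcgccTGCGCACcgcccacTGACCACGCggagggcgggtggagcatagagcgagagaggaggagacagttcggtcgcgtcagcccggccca
The match to TGACNNNGC begins at base -134 in Gclm, -133 in Prdx1, -92 in Txnrd1 and -42 in Gstm5. In Gclm a match to TGCGCNC overlaps it. Of the 47 genes with a window, 9 (19.1%) held TGACNNNGC, beside 13% of the 27025 genes and 11.5% of the 32851 windows. Among these 9, Gstm5, Gstm7 and Aldh9a1 stood above their control level and Prdx1, Gclm, Txnrd1 and Sod1 below it. The remaining ones, Gsta3 and Aldh1a2, lay under the minimum.

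Nfe2l2 itself stood at 60.9 against 54.5 CPM (ratio 0.896, 0.817 to 0.982). Of NRF2 regulators, 11 of 11 listed genes reached 1 CPM, 0 of them at least 2-fold up and 0 down (median log2 fold -0.12). The repressors Bach2 and Bach1 had log2 folds of -0.75 and 0.38, and Maff, a small MAF protein, -0.66. Of further NRF2 target genes, 17 of 19 listed genes reached 1 CPM, 0 of them at least 2-fold up and 0 down (median log2 fold -0.022). Ugdh of glucuronate synthesis had a log2 fold of 0.96, malic enzyme Me1 -0.56, and the aldehyde and carbonyl reductases Akr1b3 and Cbr3 -0.46 and -0.38.

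Of genes of glutathione synthesis and turnover, 13 of 17 listed genes reached 1 CPM, 2 of them at least 2-fold up and 2 down (median log2 fold -0.13). Cbs, which channels homocysteine to cysteine, stood at 24.5 against 59 CPM (ratio 2.41, 2.14 to 2.71). Oplah, which returns oxoproline to glutamate, stood at 4.75 against 14.8 CPM (ratio 3.13, 2.42 to 4.08), and shares 385 exonic bases with Exosc4, which had 395 and 422 counts. Chac1 and Chac2, which cleave glutathione inside the cell, stood at 11.5 against 2.66 CPM (ratio 0.233, 0.162 to 0.326) and 15.2 against 7.23 CPM (ratio 0.476, 0.378 to 0.596). Other genes of glutathione breakdown, named after their values were seen, did not lie below the control, Ggt7 being at 47.6 against 52.4 CPM (ratio 1.1, 0.999 to 1.22) and Ggct at 7.42 against 8.18 CPM (ratio 1.1, 0.856 to 1.42), while Ggt1, under the minimum, had 5 and 19 counts. Named after their values were seen, the glutathione reductase Gsr stood at 72.5 against 49.1 CPM (ratio 0.678, 0.619 to 0.743) and the cystine importer Slc7a11 at 11.6 against 6.85 CPM (ratio 0.589, 0.461 to 0.748).

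Superoxide dismutases and catalase lay within 2-fold. Sod1, the copper and zinc enzyme of the cytosol, had 4160 and 3414 counts, which is 247 against 216 CPM (ratio 0.877, 0.838 to 0.918). Sod2, the manganese enzyme of mitochondria, stood at 116 against 99.1 CPM (ratio 0.853, 0.797 to 0.912), and 21% of its 50-base stretches also occur in other genes. Secreted Sod3 was scarce, with 30 and 27 counts and an interval that held 1 (0.55 to 1.67). Catalase, encoded by Cat and active in peroxisomes, lay on the other side at 91.9 against 129 CPM (ratio 1.4, 1.31 to 1.5).

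**Figure D3:**
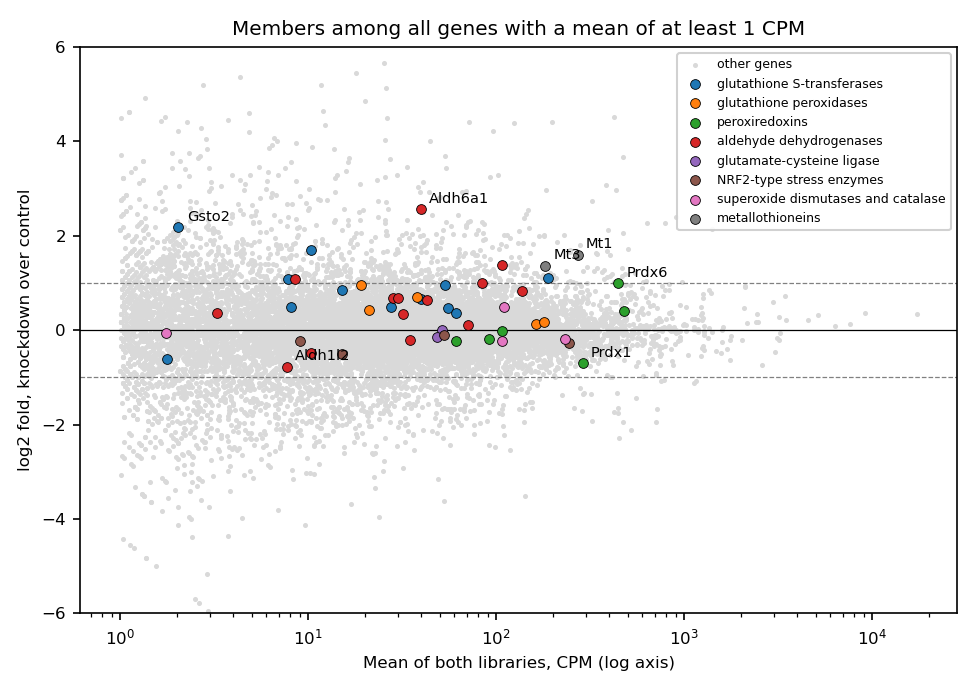
Log2 fold between the libraries against the mean level in CPM (log axis) for all genes with a mean of 1 CPM or more (grey) and for the 49 genes described here (coloured by family), with dashed lines at 2-fold. The coloured points lie between -0.77 and 2.57, and 28 genes fall outside the range drawn.

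**Figure D4:**
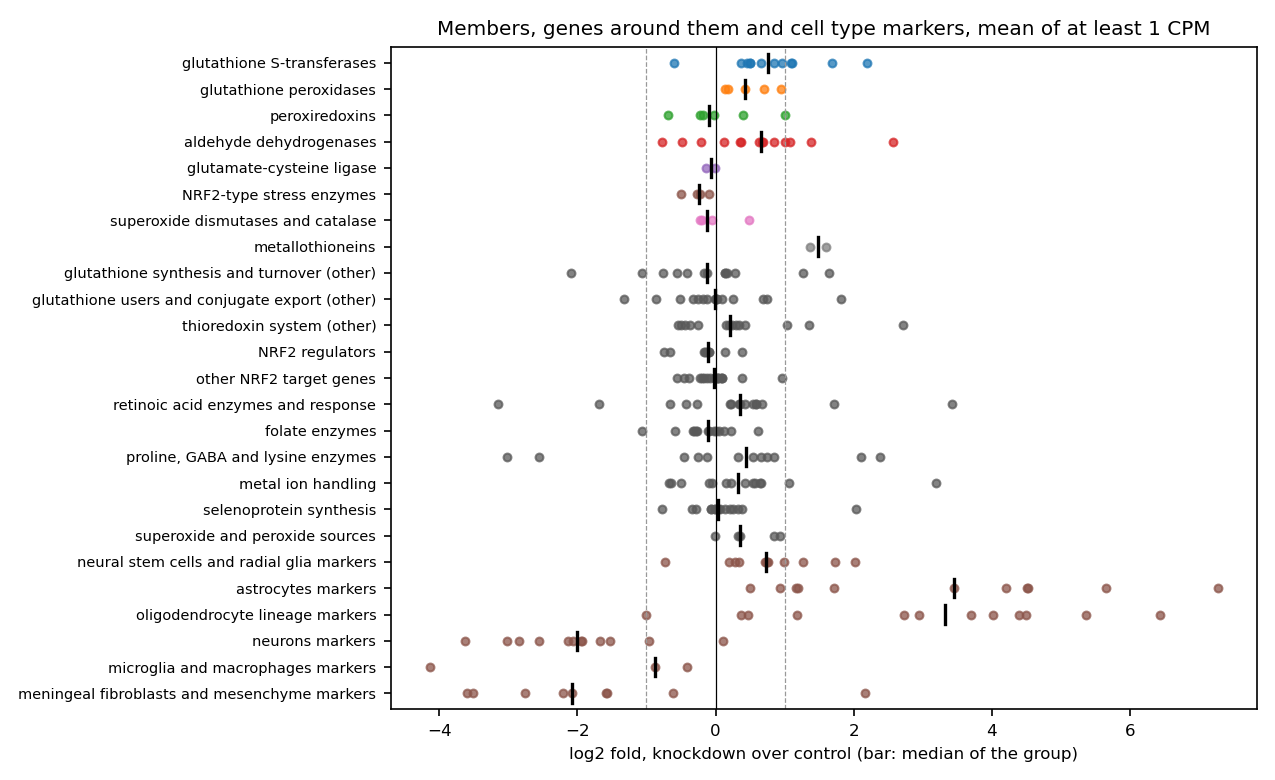
Log2 folds of single genes (points) and their median (black bar) for each family, for the listed genes around them and for cell type markers, all past 1 CPM. Family medians run from -0.24 for the NRF2-type enzymes to 1.49 for the metallothioneins. The median of the neuronal markers is -2 and that of the astrocyte markers 3.45.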

How the data were processed

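Total RNA of 1 control and 1 knockdown sample was sequenced. Per the submitters' processing notes, Bowtie2 2.2.3, TopHat2 2.0.12, HTSeq 0.6.0 and the build mm9 were used. Their order and settings, strandedness and the treatment of reads with several matches are not given in the sources used here. The table's coordinates follow GRCm38, since 51 of the 59 genes have the same start and end in GENCODE M21. The authors deposited a raw count per gene and library, 16549682 and 16058407 in all. The deposited table also holds CPM, a fold ratio, its log2 and p-values, and its header names no test. Of these only the CPM was used, as an alternative scaling.

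Counts were scaled with TMM factors (edgeR 4.0.16). The log2 fold adds 0.5 to each count, while CPM and ratios do not. With 1 library per group no test was made, and genes were called by 2-fold. Intervals are exact binomial ones at 95%. PCR copies are not independent molecules, so intervals and floors cover counting error only. Exon lengths, exonic overlaps and shared 50-base stretches come from GENCODE M21. The calculation was tested on simulated data. The genes and lists were chosen with earlier results of these data known. By the rule for named genes, every member past a mean of 1 CPM is given, and from each list up to 4 genes by absolute log2 fold. Some genes that the rule names are not reported here. Alternatives were DESeq2 1.42.0 size factors, total counts, the authors' CPM, no minimum, 10 CPM, a count of 5 added, and thresholds of 1.5- and 3-fold.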

Additional observations from a re-analysis of the deposited data

How the results depend on the processing

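The median log2 fold of the members was 0.38 to 0.45 under the other scalings, minimums and added count, and no member past the minimum changed direction with the scaling or the added count. The members at least 2-fold higher were 9 of 49 with each other scaling (6.93% to 7.39% of all genes), 8 of 40 with a minimum of 10 CPM (4.91%) and 14 of 59 without one (11.7%). At 1.5-fold 20 of 49 members were higher and 3 lower, beside 2259 (16%) and 2218 (15.7%) of 14158 genes. At 3-fold 4 were higher and 0 lower, beside 478 (3.38%) and 494 (3.49%). Without a minimum 1 of 59 members was lower, and 2286 of 19595 genes were higher and 2475 (12.6%) lower. With a minimum of 10 CPM these were 500 and 496 of 10187 genes. With 1 library per group none could be left out. No paired analysis was possible because each group has 1 library and the labels give no replicate numbers.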

Other observations

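Of genes that supply selenocysteine to enzymes such as Gpx1, Gpx4 and Txnrd1, and of further selenoproteins, 16 of 16 listed genes reached 1 CPM, 1 of them at least 2-fold up and 0 down (median log2 fold 0.033). Selenop, the secreted selenium carrier, stood at 10.3 against 41.9 CPM (ratio 4.08, 3.45 to 4.86), and shares 439 exonic bases with Ccdc152 on the opposite strand. Selenom had a log2 fold of -0.77, Selenok 0.39 and the elongation factor Eefsec -0.34. In the thioredoxin system, 14 of 14 listed genes reached 1 CPM, 3 of them at least 2-fold up and 0 down (median log2 fold 0.22). Txnip, which binds and restrains thioredoxin, stood at 6.82 against 44.9 CPM (ratio 6.58, 5.4 to 8.08), and shares 606 exonic bases with the antisense gene Gm15441, which had 6 and 6 counts. The sestrins Sesn3 and Sesn1 had log2 folds of 1.36 and 1.03, and the methionine sulfoxide reductase Msrb3 -0.55. Thioredoxin itself, Txn1, named after its value was seen, stood at 502 against 388 CPM (ratio 0.774, 0.748 to 0.8).

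Of sources of superoxide and peroxide, 5 of 14 listed genes reached 1 CPM, 0 of them at least 2-fold up and 0 down (median log2 fold 0.36). The monoamine oxidases Maob and Maoa had log2 folds of 0.85 and 0.36. Cyba, a subunit of the NADPH oxidases, had 0.33. The phagocyte oxidase subunit Cybb, under the minimum and named after its value was seen, had 25 and 1 counts, which is 1.48 against 0.0634 CPM (ratio 0.0427, 0.00104 to 0.261), beside the lower sum of the microglial markers.

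Some pseudogenes of these families were counted in rows of their own. Described here are those that share the most stretches of 50 bases with Gpx4 and Gstm1. Gpx4-ps2 had 832 and 845 counts, which is 49.4 against 53.6 CPM (ratio 1.09, 0.985 to 1.2). Gstm2-ps1, with which Gstm1 shares 215 stretches of 50 bases, had 34 and 79 counts, which is 2.02 against 5.01 CPM (ratio 2.48, 1.64 to 3.83).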
